A study of Mus musculus with 3 samples.

Results

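Chemokine ligands and chemokine receptors were described in bulk RNA sequencing of sorted mouse leptomeningeal cells. The members were all genes of the count table whose symbol is that of a CC, CXC, CX3C or XC chemokine (Ccl, Cxcl, Cx3cl, Xcl) or of a conventional or atypical chemokine receptor (Ccr, Cxcr, Cx3cr, Xcr, Ackr). This gave 61 of 46983 genes, of which 38 were ligands and 23 were receptors. The 3 libraries, numbered as in the labels, came from the pia-enriched fraction of mice given vehicle and formed 1 group. Genotype, strain, sex, age, the vehicle, the sorting gate and the number of mice behind a library were not given in the labels. Nothing says that the libraries came from separate mice, so p-values measure only the spread between these libraries, which may be technical.

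Chemokines are small proteins that steer migrating cells along gradients bound to heparan sulfate on cell surfaces and matrix. Conventional receptors signal through G proteins of the Gi type, whereas atypical receptors take up or carry chemokines without that signal and so shape the gradient. In the meninges, Cxcl12 made by leptomeningeal cells is known to hold Cajal-Retzius cells and cerebellar granule cell precursors at the brain surface during development. Cx3cr1 and its ligand Cx3cl1 are best known for the exchange between neurons or endothelium and microglia or other macrophages.

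Gene counts were 21002860, 28704952 and 25338616 in libraries 1, 2 and 3. Levels are given as CPM, counts scaled to a common library total with TMM factors. Where a gene had a count of 0, the level could still be as high as that of 3 counts, or 0.152, 0.101 and 0.116 CPM in libraries 1, 2 and 3. Library 1 stood apart from the others: its log2(CPM + 1) values over 14409 genes had a Pearson coefficient of 0.933 with library 2 and 0.941 with library 3, whose own coefficient was 0.975. Its difference from them followed GC content, with a Spearman coefficient of 0.608 across 14375 genes, which are not independent replicates. The fibroblast genes Col1a1, Col1a2, Col3a1, Dcn, Lum and Pdgfra summed to 23467, 29100 and 25292 CPM, and 0 of the 6 was called variable between libraries, with 0 at an unadjusted p under 0.05 and 0 with the DESeq2 dispersion trend.

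The promoter letters of 6 ligands are shown first, because they cover the 2 highest ligands, an interferon-inducible ligand and a set of neighbouring genes with the same motif but unequal levels. They are RefSeq sequences of GRCm38.p6, from 250 bases before to 50 bases after the annotated start, written 5′ to 3′ in the direction of the gene. Capitals mark letters of the kappa-B motif (the site of NF-kB proteins), of the core of the interferon-stimulated response element (ISRE core: GAAA, any 2 bases, GAAA) or of TATAAA. The windows of the 3 ligands are those of Cxcl12 at chr6:117168285-117168584 on the plus strand, Cx3cl1 at chr8:94771930-94772229 on the plus strand and Cxcl10 at chr5:92348840-92349139 on the minus strand.
Cxcl12: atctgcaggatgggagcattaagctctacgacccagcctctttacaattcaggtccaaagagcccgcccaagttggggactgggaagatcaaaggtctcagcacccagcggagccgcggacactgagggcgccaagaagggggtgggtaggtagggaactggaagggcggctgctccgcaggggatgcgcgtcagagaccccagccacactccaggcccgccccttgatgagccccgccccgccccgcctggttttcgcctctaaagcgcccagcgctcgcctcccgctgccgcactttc
Cx3cl1: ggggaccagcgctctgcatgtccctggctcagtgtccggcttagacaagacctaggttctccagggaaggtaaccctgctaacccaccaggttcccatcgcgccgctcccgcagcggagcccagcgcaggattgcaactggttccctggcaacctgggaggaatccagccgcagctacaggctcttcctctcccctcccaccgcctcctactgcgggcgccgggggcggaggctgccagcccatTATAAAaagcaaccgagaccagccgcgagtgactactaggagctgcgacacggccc
Cxcl10: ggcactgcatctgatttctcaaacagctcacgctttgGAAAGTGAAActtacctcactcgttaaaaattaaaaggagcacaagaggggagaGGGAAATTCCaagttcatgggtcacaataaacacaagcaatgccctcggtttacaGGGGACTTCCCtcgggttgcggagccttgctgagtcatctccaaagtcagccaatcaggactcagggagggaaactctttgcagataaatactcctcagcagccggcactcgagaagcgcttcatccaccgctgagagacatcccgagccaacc

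The windows of Cxcl12 and Cx3cl1, the ligands of highest level, held 20 and 19 CG dinucleotides, against a median of 7 over 32851 windows, and neither held a kappa-B match. Members of lower level had as many: the windows of Cxcl14 and Cxcr4, with means of 18.6 and 3.85 CPM, held 22 and 20. The window of Cxcl10, an interferon-inducible ligand, held 10 CG dinucleotides, 1 ISRE core match and 3 kappa-B matches, of which a pair overlap. Stretches of 80 bases around the kappa-B match of Cxcl1 (chr5:90891144-90891223), Cxcl2 (chr5:90903772-90903851) and Cxcl3 (chr5:90785998-90786077), all on the plus strand, are given for comparison.
Cxcl1: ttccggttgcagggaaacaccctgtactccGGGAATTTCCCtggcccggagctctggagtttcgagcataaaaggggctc
Cxcl2: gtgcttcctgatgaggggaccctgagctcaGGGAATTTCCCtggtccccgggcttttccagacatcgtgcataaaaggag
Cxcl3: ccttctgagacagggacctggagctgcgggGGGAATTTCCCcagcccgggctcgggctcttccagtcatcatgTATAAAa

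All 3 stretches hold the same letters GGGAATTTCCC, which count as 2 overlapping matches. The levels of the 3 genes were far apart: Cxcl1 had a mean of 25.7 CPM and Cxcl2 of 0.653 CPM, and Cxcl3 had no count in any library. A kappa-B match, sought on both strands, was found in 12 of 53 windows of the members (22.6%) and in 8.46% of all windows. For the ISRE core on both strands the shares were 3 of 53 (5.66%) and 3.44%, for the PU.1 letters GAGGAAGT on both strands 1 of 53 (1.89%) and 3.20%, and for TATAAA on the strand of the gene 12 of 53 (22.6%) and 8.32%. Windows were matched for 46 of the 61 members, and not for Cxcl16, Ccl2, Ccl7 and Ccl11, among others. A match is a description of letters and was not tested as a site.

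Ligand transcripts far exceeded receptor transcripts. Summed over the 38 ligands the level was 2079, 1789 and 1907 CPM in libraries 1, 2 and 3 (1925 ± 146, SD, n = 3), and over the 23 receptors 56.7, 64.7 and 111 CPM (77.5 ± 29.4, SD, n = 3). Ligands thus made up 0.196%, 0.186% and 0.195% of gene counts, and receptors 0.00535%, 0.00670% and 0.0114%. The log2 ratio of the sums was 5.20, 4.79 and 4.10, and per kilobase of exon its mean was 4.10 in place of 4.70. The ligand sum differed little between libraries, whereas the receptor sum was highest in library 3.

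Most members were low or not detected. Of the ligands, 3 had a mean of at least 100 CPM, 6 lay from 10 to 100 CPM, 12 from 1 to 10 CPM and 10 below 1 CPM, and 7 had no count in any library. Of the receptors, 0 reached 100 CPM, 2 lay from 10 to 100 CPM, 6 from 1 to 10 CPM and 12 below 1 CPM, and 3 had no count. The 10 members without a count were Ccl1, Ccl20, Ccl21b, Ccl26, Ccl27b, Cxcl3, Xcl1, Ackr2, Ccr3 and Cxcr1. Reads that align to more than 1 place were not given to genes, so near-identical copies such as Ccl21a and Ccl21b, or Ccl27a and Ccl27b, are uncertain.

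**Figure D1:**
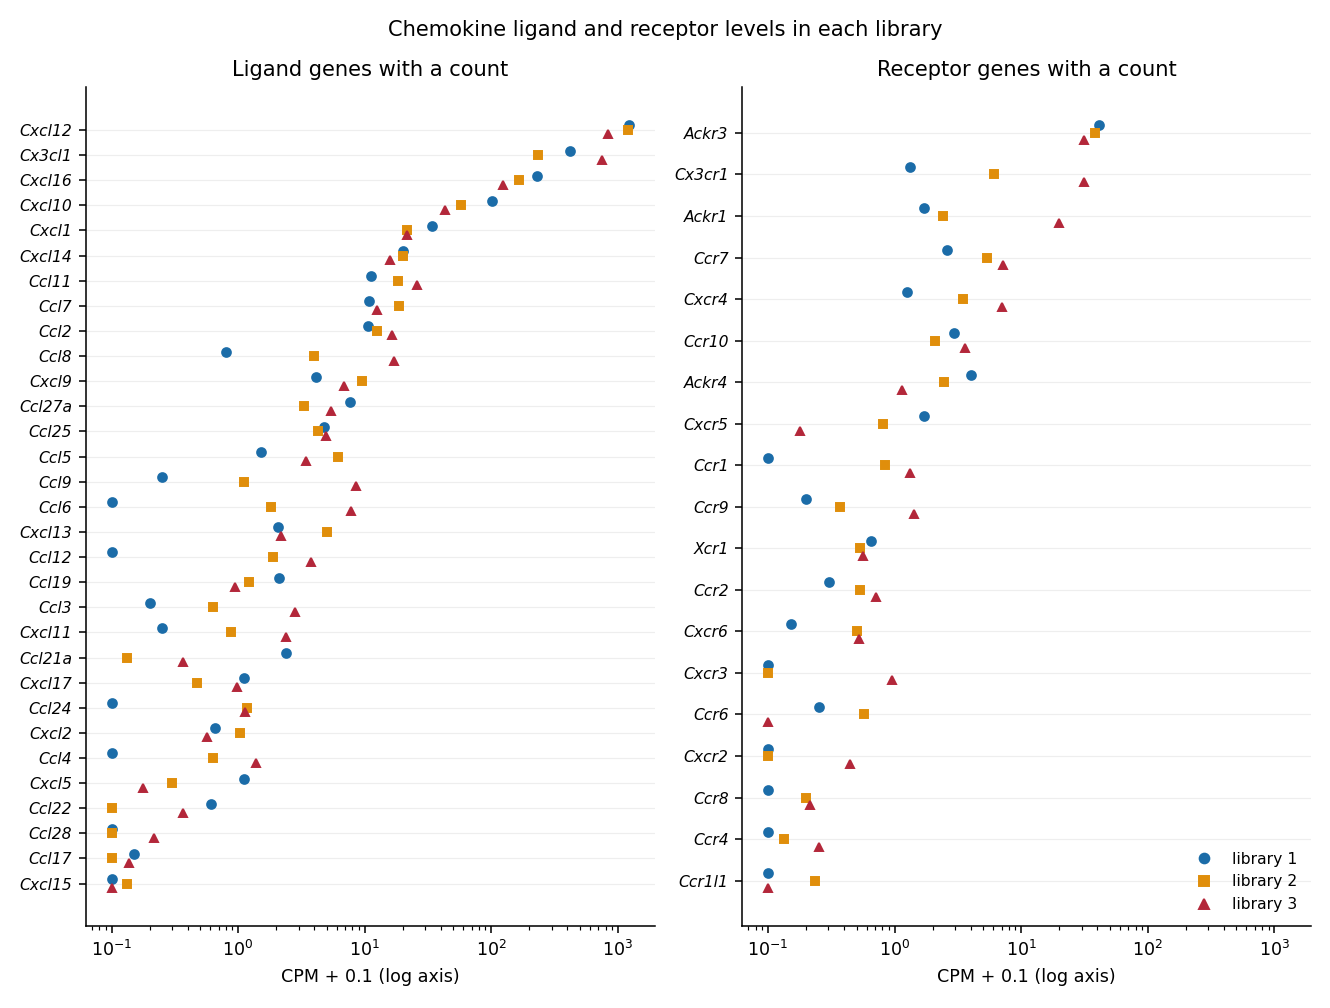
Level of each of the 31 ligand genes and 19 of the receptor genes with a count, as CPM + 0.1 on a log axis, with a point for each of the 3 libraries; genes are ordered by mean CPM. Cxcl12, Cx3cl1 and Cxcl16 lie above 100 CPM in every library, and the points of Cx3cr1, Ackr1 and Ccl8 are spread far apart, with library 3 highest.

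Most of the ligand sum came from 3 genes. Cxcl12, Cx3cl1 and Cxcl16 together took 89.6%, 89.4% and 89.3% of it in libraries 1, 2 and 3. The homeostatic ligands, which act in resting tissue, comprised 12 members with 1258, 1236 and 864 CPM in all, nearly all of it from Cxcl12. Of these 12, 6 had a mean of at least 1 CPM and 2 had no count.

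Cxcl12 (ENSMUSG00000061353.11, chromosome 6, 117168535 to 117181367, plus strand), the ligand of Cxcr4 and Ackr3, was at 1219, 1202 and 834 CPM in libraries 1, 2 and 3 (1085 ± 218, SD, n = 3). Libraries 1 and 2 were close together and library 3 was lower, and the test between libraries did not call the gene (edgeR goodness of fit, adjusted p = 0.9997). Its share of the ligand sum was 58.6%, 67.2% and 43.7%. Among the other homeostatic ligands, Cxcl14, found in many epithelia and stromal cells, was at 19.9, 20.1 and 15.7 CPM (18.6 ± 2.47, SD, n = 3). Ccl25, known from thymus and gut epithelium, was at 4.65, 4.17 and 4.86 CPM. These values lay close together, but with GC content and length trends removed they were 8.49, 2.81 and 3.95 CPM, highest in library 1. Ccl27a, an attractant of skin-homing T cells, was at 7.53, 3.19 and 5.32 CPM. Cxcl13, the B cell attractant of lymphoid follicles, was at 1.97, 4.91 and 2.08 CPM. Of the ligands of Ccr7, Ccl19 was at 2.02, 1.11 and 0.848 CPM, and Ccl21a had 45, 1 and 7 counts.

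The transmembrane ligands Cx3cl1 and Cxcl16, which are anchored by a mucin stalk and shed by the proteases Adam10 and Adam17, summed to 644, 398 and 869 CPM. Cx3cl1 (ENSMUSG00000031778.12, chromosome 8, 94772009 to 94782427, plus strand) was at 416, 234 and 744 CPM (465 ± 259, SD, n = 3). Its level was highest in library 3 and lowest in library 2, a fold of 3.19, and its share of the ligand sum ran from 13.1% in library 2 to 39.0% in library 3. With all libraries Cx3cl1 was not called variable (edgeR goodness of fit, adjusted p = 0.554). Without library 1 it was called (edgeR adjusted p = 0.0372), in a fit that called 0.175% of 15460 genes. Cxcl16 (ENSMUSG00000018920.11, chromosome 11, 70453983 to 70459984, minus strand), an attractant of Cxcr6-bearing T cells, was at 228, 164 and 125 CPM (172 ± 52.3, SD, n = 3), highest in library 1. Exons of Zmynd15 on the opposite strand cover 18.3% of its exonic bases, and Zmynd15 itself was at 26.7, 18.4 and 13.9 CPM. The strand setting of the counting was not given, so reads of such overlapping genes cannot be told apart. Adam10 was at 25.7, 93.2 and 66.5 CPM and Adam17 at 64.4, 102 and 87.9 CPM, lowest in library 1, and neither was called.

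The interferon-inducible ligands Cxcl9, Cxcl10 and Cxcl11 share the receptor Cxcr3 of activated T cells. Their sum was 106, 67.5 and 51.9 CPM in libraries 1, 2 and 3, most of it from Cxcl10. Cxcl10 (chromosome 5, 92346638 to 92348889, minus strand) was at 102, 57.3 and 42.8 CPM (67.3 ± 30.7, SD, n = 3), and was not called (edgeR adjusted p = 0.964). Cxcl9 did not share that order, with 3.99, 9.44 and 6.79 CPM. Cxcl11, a polymorphic pseudogene in the reference annotation, had 3, 23 and 59 counts and was lowest in library 1. Cxcl10 and Cxcl11 overlap genes on the opposite strand over 5.91% and 41.7% of their exonic bases.

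The ligands that attract neutrophils through Cxcr2 were Cxcl1, Cxcl2, Cxcl3 and Cxcl5, of which 1 had a mean of at least 1 CPM. Cxcl1 was at 34.2, 21.4 and 21.6 CPM (25.7 ± 7.32, SD, n = 3), highest in library 1. Cxcl2 had 11, 28 and 12 counts and Cxcl5 had 20, 6 and 2. Dissociation is known to induce early response genes. The 11 such genes listed, among them Fos and Nr4a1, summed to 7335, 4741 and 4601 CPM, with the same highest library as Cxcl1 and Cxcl10. Fos, at 3597, 2312 and 2351 CPM, and Nr4a1, at 1990, 1137 and 899.5 CPM, made up most of that sum. Hspa1a, at 61.6, 35.9 and 105 CPM, Hspa1b and Jun were highest in library 3 instead. The part of these genes in the levels of Cxcl1 and Cxcl10 was not tested.

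Inflammatory CC ligands, 16 members that attract monocytes, eosinophils and T cells, summed to 35.4, 65.6 and 100 CPM. Of these, 9 had a mean of at least 1 CPM and 3 had no count, and 11 of the 13 with a count were lowest in library 1. Over all 14409 genes past a filter on low counts, which 5 of the 16 passed, 40.4% were lowest in library 1. Ccl11, the eosinophil attractant eotaxin, was at 11.1, 18.1 and 26.0 CPM (18.4 ± 7.46, SD, n = 3). The monocyte attractants Ccl7 and Ccl2 were at 10.7, 18.4 and 12.5 CPM (13.9 ± 4.03) and at 10.6, 12.5 and 16.3 CPM (13.1 ± 2.91). Ccl2, Ccl7 and Ccl11 each lay within a fold of 2.34 over libraries, and none of the 3 was called. Ccl8 (ENSMUSG00000009185.2, chromosome 11, 82115185 to 82116799, plus strand), listed here as a ligand of Ccr8, was at 0.707, 3.86 and 16.9 CPM, a fold of 23.9 between libraries 3 and 1. Ccl5, made by T cells and many stimulated cells, was at 1.41, 6.08 and 3.32 CPM.

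**Figure D2:**
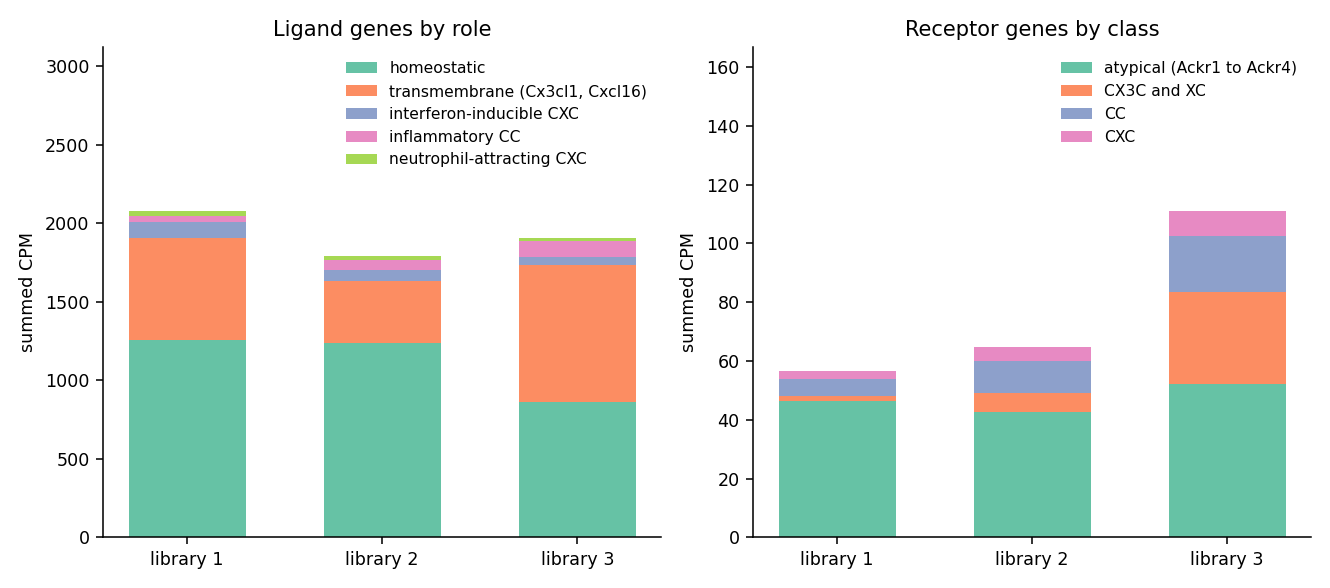
Summed CPM of the ligand genes by role (left) and of the receptor genes by class (right), stacked for each of the 3 libraries; Xcl1, with no count, is not drawn. The ligand bars reach 2079, 1789 and 1907 CPM and the receptor bars 56.7, 64.7 and 111 CPM, and the CX3C and XC segment of the receptors is 1.77, 6.45 and 31.4 CPM.

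The atypical receptors took 81.7%, 66.2% and 46.8% of the receptor sum in libraries 1, 2 and 3. In CPM they thus exceeded the conventional receptors in libraries 1 and 2, but not in library 3, with 52.0 CPM against 59.1 CPM. The exception of library 3 held in CPM and not per kilobase of exon. On that scale Ackr1 was at 14.0 and Ackr3 at 9.34 in library 3, and Cx3cr1, the highest conventional receptor, at 6.87. Ackr3 (ENSMUSG00000044337.5, chromosome 1, 90203980 to 90216751, plus strand), which scavenges Cxcl12, was at 40.8, 38.1 and 31.3 CPM (36.7 ± 4.92, SD, n = 3). Its values were close together and it was not called (edgeR adjusted p = 0.9997). Ackr4, which scavenges Ccl19, Ccl21 and Ccl25, was at 3.94, 2.35 and 1.04 CPM, highest in library 1. Ackr2, which scavenges inflammatory CC ligands, had no count in any library. Ackr1 (ENSMUSG00000037872.5, chromosome 1, 173331886 to 173333750, minus strand), carried by venular endothelium and erythroid cells, was at 1.62, 2.32 and 19.7 CPM, with library 3 far above the others. Exons of Cadm3 on the same strand cover 25.7% of its exonic bases, and Cadm3 was at 2.93, 3.43 and 3.43 CPM.

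Conventional receptors were low in libraries 1 and 2. In CPM, Cx3cr1 was the highest of them in libraries 2 and 3, and stood far above the next only in library 3. Cx3cr1 (ENSMUSG00000052336.6, chromosome 9, 119901616 to 120069879, minus strand), found on microglia, other macrophages and monocytes, was at 1.21, 6.02 and 31.0 CPM, or 24, 179 and 803 counts. No library was near another, and library 3 exceeded library 1 by a fold of 25.5. Its mean of 12.7 CPM was 3.58 CPM without library 3. Ccr7, of migrating dendritic cells and lymphocytes, was at 2.48, 5.31 and 7.13 CPM (4.97 ± 2.35, SD, n = 3). Cxcr4, the signalling receptor of Cxcl12, was at 1.16, 3.39 and 6.98 CPM, a fold of 6.01, and was not called (edgeR adjusted p = 0.630). Ccr10, a receptor of Ccl27a, was at 2.83, 1.98 and 3.51 CPM.

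The remaining conventional receptors included Ccr1, with 0, 22 and 32 counts, and Cxcr5, the B cell receptor of Cxcl13, with 32, 21 and 2. Cxcr5 was highest in library 1, in contrast to Ccr1. Ccr2, of inflammatory monocytes, had 4, 13 and 16 counts, Cxcr6 had 1, 12 and 11, and Xcr1, of cross-presenting dendritic cells, had 11, 13 and 12. Cxcr2 and Cxcr3 had counts in library 3 alone, 9 and 22. Ccr4, Ccr6, Ccr8, Ccr9 and Ccr1l1 had means of at most 0.560 CPM.

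Whether a gene varied more between libraries than others of its level was asked with the goodness-of-fit test of edgeR, adjusted by Benjamini-Hochberg over all 14409 genes past a filter on low counts. The test called 0.437% of these genes (63 of 14409), and 0.382% when only calls lowest in library 1 were counted. Of the members, 25 of 61 passed the filter and 3 were called: Cx3cr1 (adjusted p = 0.000883), Ccl8 (adjusted p = 0.01025) and Ackr1 (adjusted p = 0.0129). Each was lowest in library 1 and highest in library 3, and 5 of the 25 (20%) had an unadjusted p under 0.05, as had 1015 of all 14409 genes (7.04%). The called members were 1 of 17 tested ligands and 2 of 8 tested receptors. The median fold between highest and lowest library was 2.36 over the 25 members and 1.72 over all 14409 genes. The members were lower, with a median of 7.15 CPM against 17.99 CPM over all genes, and these folds were not matched for level.

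The calls rested on library 3. Without library 3, 0.0816% of genes and 0 members were called by edgeR, with 2 members at an unadjusted p under 0.05, and the adjusted p was 0.834 for Cx3cr1, 0.769 for Ccl8 and 0.998 for Ackr1. Without library 1, 0.175% of genes were called and 3 members, Cx3cr1 (edgeR adjusted p = 0.0113), Ackr1 (0.00149) and Cx3cl1, but not Ccl8 (0.110). Without library 2, 0.192% of genes were called and 2 members, Cx3cr1 (edgeR adjusted p = 0.00420) and Ccl8 (0.0285), but not Ackr1 (0.138). With the GC content and length trends removed, the 3 calls were made again.

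The filter required counts in all 3 libraries and left out members that were nearly missing from 1. Of the 26 members with a count that did not pass, 19 were lowest in library 1 and 13 had no count there. A gene low in 1 library fails this filter, and library 1 had the fewest gene counts. The share over all genes that failed is not given here, so these counts cannot be read as a trait of the members. A filter on a mean of 10 counts tested 39 members and called 1.1% of 16392 genes and 7 members, among them the same 3 and Ccl6, Ccl9 and Ccl12. Ccl6, a macrophage-derived CC ligand, had 0, 51 and 198 counts, and was at least 50.4-fold higher in library 3 than the limit in library 1. Ccl12, a monocyte attractant, was at least 24.2-fold higher on the same measure. Ccl9 had 3, 30 and 217 counts.

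Markers of macrophages and microglia moved with these members. Of 10 listed genes, 9 were lowest in library 1 and 6 were called variable; none was at 0 in any library. Without Tmem119, which was at 809, 596 and 544 CPM, the other 9 summed to 16.4, 258 and 730 CPM, and all 9 were highest in library 3. Csf1r was at 1.16, 31.5 and 86.9 CPM. Set against that sum, Cx3cr1 was 7.41%, 2.33% and 4.24% in libraries 1, 2 and 3, and Ackr1 was 9.88%, 0.900% and 2.70%. Ccl8 was 4.32% of it in library 1 and 2.31% in library 3. All 3 were thus the largest share of the marker sum in library 1, where their counts were fewest. The mast cell list summed to 8.49, 27.5 and 84.7 CPM and the B cell list to 94.0, 132 and 152 CPM, with 5 of 5 and 5 of 6 genes lowest in library 1. The choroid plexus list summed to 171, 3240 and 4923 CPM. The part of these cells in the levels of Cx3cr1, Ccl8 and Ackr1 was not tested, and in bulk RNA fewer cells of a type and less RNA per cell cannot be told apart.

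**Figure D3:**
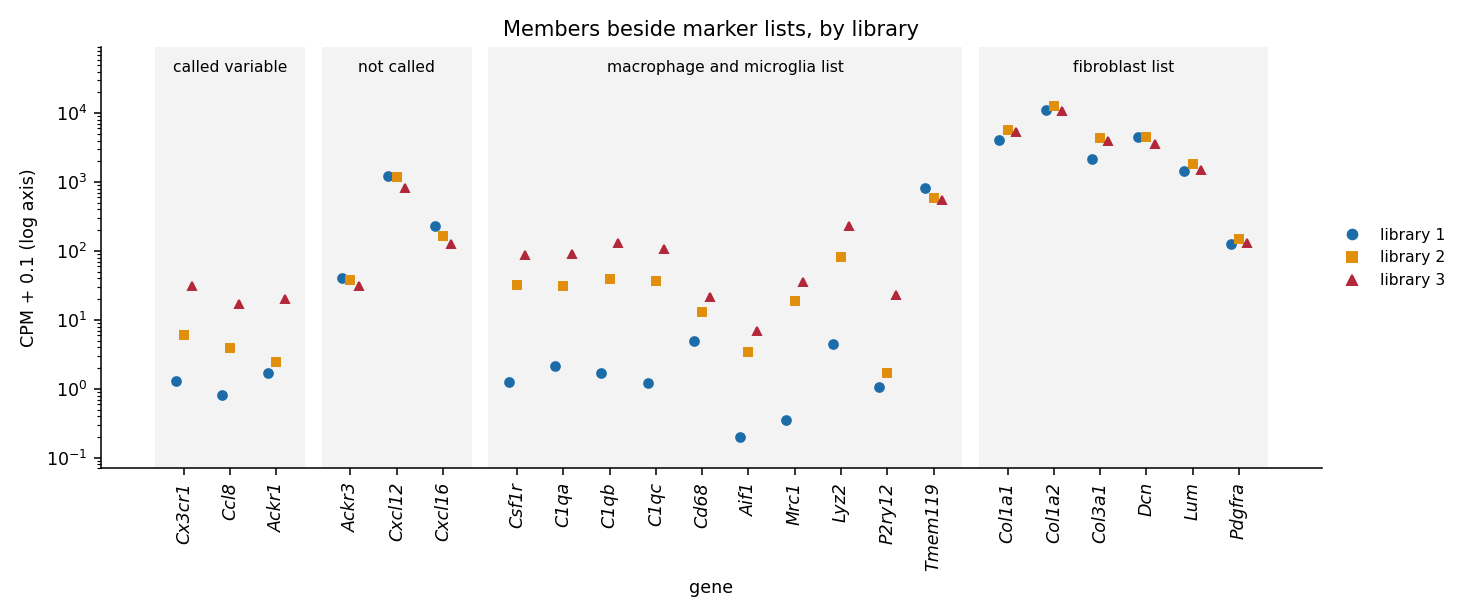
Levels of the 3 members called variable, 3 members not called, the 10 macrophage and microglia genes and the 6 fibroblast genes, as CPM + 0.1 on a log axis, with a point for each library. Cx3cr1, Ccl8 and Ackr1 and every macrophage gene except Tmem119 are both lowest in library 1 and highest in library 3. Ackr3, Cxcl12, Cxcl16 and the fibroblast genes do not have this order, although 4 of the 6 fibroblast genes are lowest in library 1.

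Ackr1 is carried by endothelial and erythroid cells. The 7 blood endothelial genes summed to 89.1, 81.1 and 92.1 CPM and 4 of the 7 were lowest in library 1, with 0 called by edgeR, 0 at an unadjusted p under 0.05 and 0 with the DESeq2 dispersion trend. Emcn, at 6.67, 13.8 and 17.9 CPM, Flt1 and Cldn5 had the order of libraries of Ackr1. Cdh5, at 32.6, 33.8 and 20.4 CPM, did not. Nor did Pecam1, at 15.4, 10.4 and 17.5 CPM, or Egfl7, at 27.3, 9.88 and 20.4 CPM. The part of endothelial cells in the level of Ackr1 was not tested. The 6 erythroid genes summed to 819, 205 and 340 CPM, highest in library 1. The 6 neutrophil genes, whose cells carry Cxcr2, summed to 2.43, 3.43 and 8.68 CPM, with Mmp8 at 0 in every library. The 6 T and NK cell genes summed to 4.80, 2.42 and 3.32 CPM. The 6 dendritic cell genes, which include the member Xcr1, summed to 87.1, 85.0 and 191 CPM, most of it from H2-Ab1 at 79.3, 77.2 and 185 CPM. Flt3, Itgax and Clec9a had no count in library 1.

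Levels of different genes were compared per kilobase of exon, to remove the effect of transcript length. On this scale Cxcl12 was at 133 ± 26.6 and Cx3cl1 at 118 ± 65.9 CPM per kilobase (SD, n = 3), and Cx3cl1 was the higher in library 3. They were followed by Cxcl16 at 57.1 ± 17.3, Cxcl10 at 29.9 ± 13.6, Ccl7 at 17.3 ± 5.04 and Ccl11 at 17.0 ± 6.90 CPM per kilobase. Of the 20 neighbouring pairs in the order of the 21 ligands above 1 CPM, 3 were further apart than the larger SD of the pair: Cxcl16 above Cxcl10, Cxcl14 above Ccl5 and Ccl25 above Cxcl11. Among the 8 receptors above 1 CPM, Ackr3 came first at 10.97 ± 1.47 CPM per kilobase, and 1 of 7 neighbouring pairs, Ccr10 above Ackr4, was separated in this way. Ackr3 and Ackr1 were not: Ackr1 was the higher in library 3, at 14.0 against 9.34 CPM per kilobase.

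Known ligand and receptor pairs were then set side by side. Of 46 pairs listed from general knowledge, both genes were at 1 CPM or more in every library in 8: Cxcl12 with Ackr3 and with Cxcr4, Cx3cl1 with Cx3cr1, Ccl27a with Ccr10, Ccl25 with Ackr4, and Ackr1 with Cxcl1, Ccl2 and Ccl7. In 18 of the 31 pairs whose ligand had a mean of at least 1 CPM, the receptor was below 1 CPM. Per kilobase, Cxcl12 exceeded Ackr3 by folds of 12.2, 12.9 and 10.9 in libraries 1, 2 and 3, close together, and exceeded Cxcr4 by 232, 78.3 and 26.4. Cx3cl1 exceeded Cx3cr1 by 393, 44.5 and 27.6. Cxcl16 exceeded Cxcr6 by a fold of 261 in library 2 and 188 in library 3. Ccl19 was below its receptor Ccr7 in libraries 2 and 3, at folds of 0.476 and 0.271, and above it in library 1, at 1.86. Ccl11 had no counterpart, since its receptor Ccr3 had no count in any library.

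**Figure D4:**
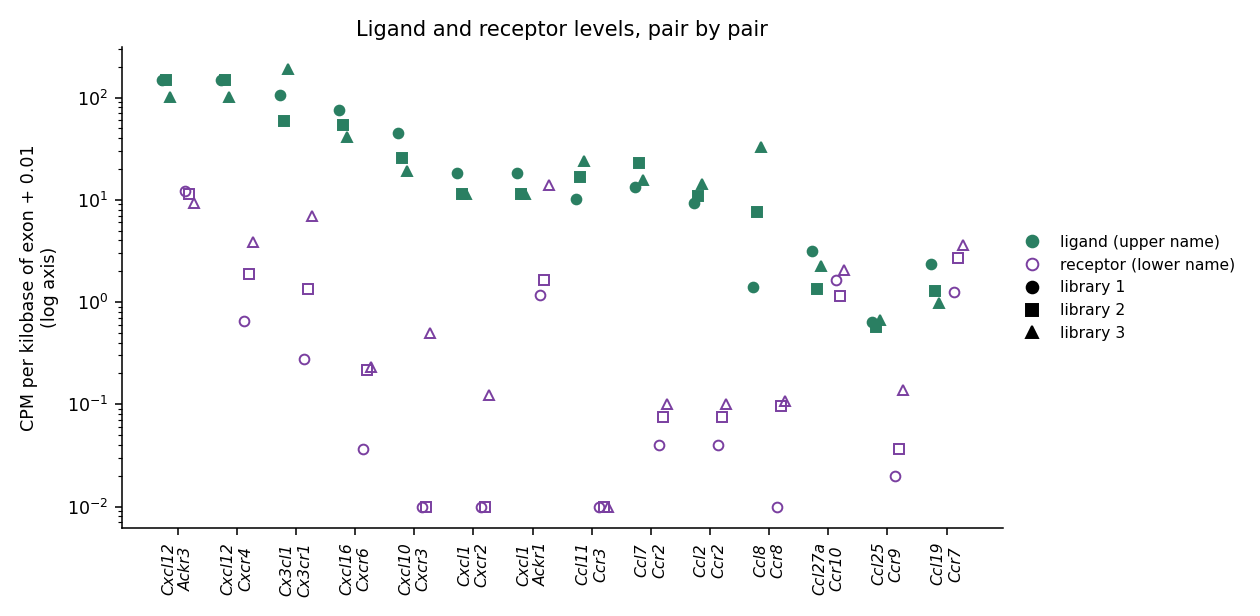
Ligand (filled) and receptor (open) levels of 14 of the 46 pairs, as CPM per kilobase of exon + 0.01 on a log axis, with a marker shape for each library. Cxcl12 and Ackr3 keep a ratio of 10.9 to 12.9, whereas Cxcr4 and Cx3cr1 are spread over libraries below Cxcl12 and Cx3cl1, and Ccr3 lies at the floor of the axis.

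Many members are neighbours in the genome, and 7 groups of at least 3 members lay within 300 kb of each other. Neighbours often differed in level. Cx3cl1, at 465 CPM, lies between Ccl22 and Ccl17 within 66.4 kb of chromosome 8, and those were at 0.258 and 0.030 CPM; both attract Ccr4-bearing T cells. In the group of 6 genes on chromosome 11 from 82035571 to 82305690, Ccl2, Ccl7 and Ccl11 come first and had means of 13.1 to 18.4 CPM. Next to them lie Ccl12 and Ccl8, with means of 1.81 and 7.15 CPM, and Ccl1, which had no count. Ccl12 and Ccl8 were lowest in library 1 and highest in library 3, an order that Ccl2 and Ccl11 shared. Ccl7 was lowest in library 1 and highest in library 2. The second group on chromosome 11, from 83525778 to 83664683, holds Ccl5, Ccl9, Ccl6, Ccl3 and Ccl4 and summed to 1.67, 9.88 and 23.3 CPM. All 5 were lowest in library 1, and all but Ccl5 were highest in library 3. On chromosome 5, Cxcl1 was 25.7 CPM beside Cxcl5 at 0.430, Cxcl15 at 0.011 and Cxcl2 at 0.653 CPM.

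**Figure D5:**
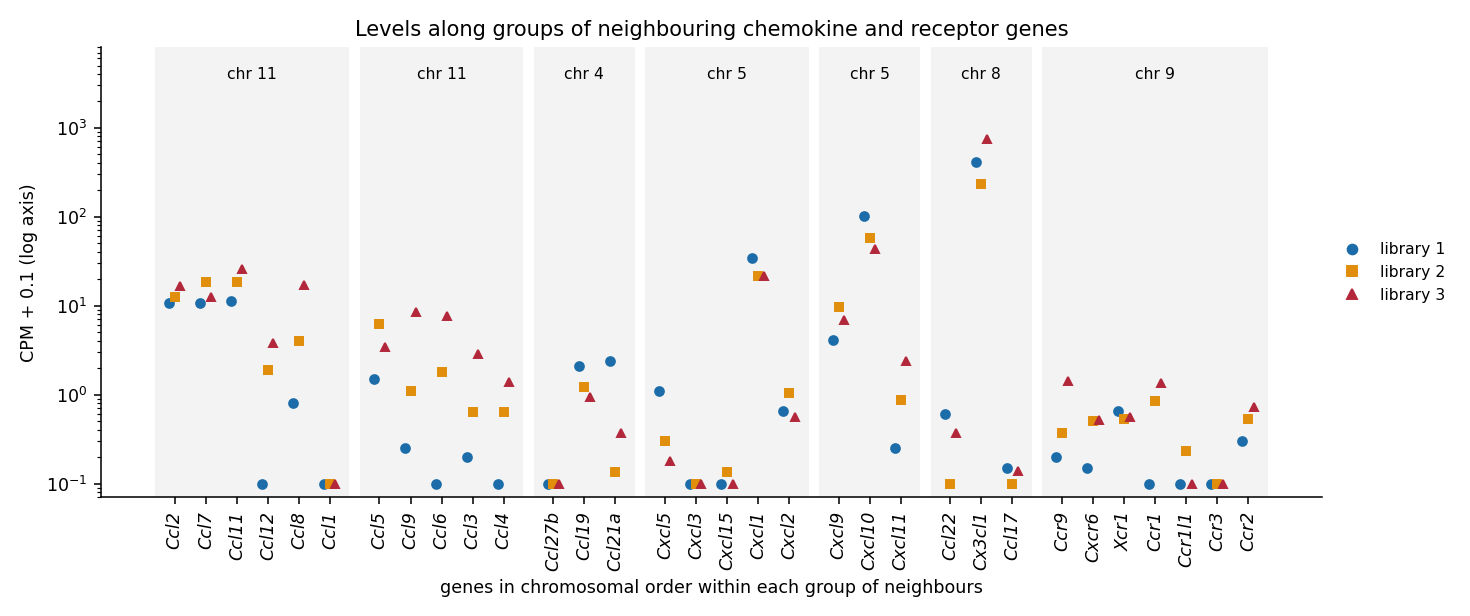
Levels of members described here in the 7 groups of neighbouring genes, in chromosomal order, as CPM + 0.1 on a log axis with a point for each library. Cx3cl1 stands above both neighbours in every library, and in the group from Ccl5 to Ccl4 all 5 genes are lowest in library 1.

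Other genes of the pathway were read from lists. Of 24 genes of receptor signalling, 21 had a mean of at least 1 CPM and 0 of 19 tested were called by edgeR, with 1 at an unadjusted p under 0.05 and 0 with the DESeq2 dispersion trend. The highest were the Gi subunits Gnai2, at 152, 97.3 and 115 CPM, and Gnai3, at 32.7, 115 and 149 CPM. Of 14 genes of NF-kB and its upstream receptors, 14 were above 1 CPM and 0 were called, with 2 at an unadjusted p under 0.05 and 0 with the DESeq2 dispersion trend. Tnfrsf1a, a receptor of TNF, was at 402, 309 and 483 CPM, and Nfkbia, the inhibitor of NF-kB, at 492, 252 and 359 CPM. Of 13 interferon-response genes, which include Cxcl9, Cxcl10 and Cxcl11, 0 of 12 tested were called, with 2 at an unadjusted p under 0.05 and 0 with the DESeq2 dispersion trend. Irf1 was at 278, 212 and 182 CPM and Ifit3 at 173, 211 and 99.7 CPM.

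Of 11 genes that trim, shed or bind chemokines, 1 was called. Mmp9, a protease that can cleave chemokines, was at 88.6, 39.8 and 10.9 CPM in libraries 1, 2 and 3 (edgeR adjusted p = 0.0354), lowest in library 3, the reverse of Cx3cr1, Ccl8 and Ackr1. The highest of the list were Cd74, a receptor component for the cytokine Mif, at 470, 460 and 844 CPM, and the protease Mmp2 at 501, 484 and 341 CPM, and neither was called.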

How the data were processed

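Leptomeninges were microdissected, dissociated and sorted, per the labels' protocols; 2 ng of RNA (integrity number 9.7 to 10) went through 12 cycles of template-switching cDNA amplification, and libraries from 10 ng of cDNA with 8 PCR cycles were read as paired 50 bp ends. The deposited values are raw counts per gene, whole numbers with no normalization. The submitters' processing notes name HTSeq 0.5.3, DESeq2 1.22.1 and mm10, with no role for each; the aligner, annotation and strand setting are not given in the sources used here. Counter rows that name no gene held 45.6%, 39.1% and 39.6% of the totals and were left out.

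From the counts, CPM was computed with edgeR 4.0.16 in R 4.3.3 on TMM library sizes, after filterByExpr at a minimum count of 10. With 1 group there is no contrast, so the test was edgeR's goodness of fit in an intercept-only fit over all genes past the filter. It had 2 degrees of freedom and used the trended dispersion. P-values were adjusted by Benjamini-Hochberg and called under 0.05. The test was run on simulated data at the fitted dispersion and at a lower one. A minimum recovery of changed genes was required at the lower one alone, so its power in these libraries is not shown. Alternatives used DESeq2 1.42.0 size factors and dispersion trend, plain totals, other filters, a common dispersion, GC content and length trends removed (mgcv 1.9.3), and each library left out. Exon lengths and positions are those of GENCODE M21 on GRCm38, which held 98.9% of the gene identifiers and all 61 members; the annotation used by the authors may differ. PCR reads are not independent molecules, so floors cover counting error only.

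Named with all 3 values were members at 10 CPM or more, called members, the 6 highest ligands and receptors, the receptors of those ligands, and Cx3cr1, Cxcr4, Ackr1 and Ackr3, with the 2 highest genes of each pathway list; other genes were named after their values were seen. The values of 1 receptor gene, counted among the members, are not reported here. The members and lists were chosen with earlier results of these data known.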

Additional observations from a re-analysis of the deposited data

Results flagged for a closer look

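Reads that aligned to more than 1 place took 16.5% of all reads in the table on average (16.9%, 15.3% and 17.4% in libraries 1, 2 and 3) and were given to no gene. They are a signal outside the gene counts, with no control samples to set it against. The members among them were not counted. Groups of 3 libraries are too small for a test of outlying libraries.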

How the results depend on the processing

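The number of members called variable (3) was the same under other size factors, plain totals, the DESeq2 dispersion trend, a common dispersion and trends with GC content and length taken out, and each of these called the same 3. It was 6 with no filter on low counts and 7 when a mean of 10 counts sufficed; both admit members nearly missing from library 1. Leaving out each replicate gave 0 to 3 members. Of all genes tested, 63 were called, 134 with no filter, 181 with the filter on the mean and 110 with the trends removed, where the cause was not tested beyond the construction of each; leaving out each replicate gave 12 to 28. The adjusted p of Cx3cr1 ran from 4.187e-07 to 0.834 over its alternatives, the highest without library 3.

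At 10 CPM in place of 1 CPM, 9 ligands and 2 receptors passed in place of 21 and 8. Per kilobase of exon, the ligand sum was 447 in place of 1925, the receptor sum 27.6 in place of 77.5 and their log2 ratio 4.10 in place of 4.70. The receptor sum was 56.9 without Cx3cr1 and Ackr1, an alternative chosen after seeing the data. Single levels depended on library 3: without it the mean of Cx3cr1 was 3.58 in place of 12.7 CPM, that of Ackr1 1.95 in place of 7.88 and that of Ccl8 2.26 in place of 7.15, and Cxcr2 and Cxcr3 had no count. No paired analysis was possible because there is only 1 group of libraries. Members below the floor of 3 counts cannot be told from absent at this depth.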

Other observations

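Chemokines and related attractants whose symbols lie outside the family names added to the picture. Rarres2, the precursor of the attractant chemerin, was at 331, 121 and 125 CPM in libraries 1, 2 and 3, and its receptor Cmklr1 at 49.2, 33.5 and 33.4 CPM. Both were highest in library 1. Mif, a cytokine that can act through Cxcr4 and Cxcr2, was at 341, 131 and 174 CPM. Ccrl2, a receptor that binds chemerin without signalling, was at 16.7, 9.27 and 20.8 CPM, and Gpr182, an atypical receptor also known as Ackr5, at 2.83, 3.19 and 4.01 CPM. Of the 14 genes of this list, 14 had a mean of at least 1 CPM and 0 were called by edgeR, with 2 at an unadjusted p under 0.05 and 0 with the DESeq2 dispersion trend.

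The platelet factors Pf4 and Ppbp are CXC chemokines by structure. Pf4 was at 2.43, 8.43 and 20.6 CPM and was not called (edgeR adjusted p = 0.195). It had the order of libraries of Cx3cr1. Both platelets and mouse macrophages express Pf4, and the part of either in its level was not tested. Ppbp was at 1.41, 0.806 and 3.12 CPM. Other platelet genes did not share the order of Pf4: Itga2b was at 16.4, 7.12 and 11.3 CPM, and Gp5 had a mean of 0.0465 CPM.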
